A study of Mus musculus with 6 samples.

Results

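Tagln, Acta2, Rgs5, Myh11 and Pdgfrb are genes of the vessel wall, and their RNA was followed across 6 mouse hippocampus arrays. All probe sets annotated to 1 of these 5 symbols were taken, which gave 6 of the 12488 probe sets of the series: 2 for Rgs5 and 1 for each other gene. The array covers 8251 genes through probe sets with a single symbol. The series comes from work on mice that overexpress HuD (Elavl4), an RNA-binding protein of neurons. Each sample is total RNA of hippocampus on an array of its own, and the labels give no genotype, age, sex or strain for any of them, so the samples are named by number and no groups were compared. The titles carry a code, le, which reads 2 for sample 2 and 1 for the other samples, with no explanation. Whether a sample is 1 animal or a pool is not stated. As a check of the tissue, Camk2a, Neurod6, Wfs1 and Neurod2, genes of hippocampal excitatory neurons, lay above the array median in all 6 samples, and Prox1, a transcription factor of dentate granule neurons, lay above it in 2.

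Mural cells wrap the endothelium of vessels. Smooth muscle cells around arterioles carry a contractile apparatus of smooth muscle actin and myosin that narrows the vessel, and pericytes sit on capillaries, where they depend on PDGF-B from the endothelium acting through the receptor PDGFRB. In brain these cells set vessel tone and help to keep the blood-brain barrier. Genes of the contractile program are known to be driven by serum response factor (SRF) with myocardin, which acts at a sequence called the CArG box. In whole tissue, fewer mural cells and less RNA per mural cell cannot be told apart.

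Promoter windows were matched by symbol from RefSeq (GRCm38.p6), and those of 2 of the 5 genes, Acta2 and Rgs5, are shown. The matching left out a chromosome. Whether this accounts for each of the missing windows of Tagln, Myh11 and Pdgfrb was not examined, so these genes are not shown to lack one. Acta2, a contractile gene, and Rgs5, a pericyte gene, differed in their order of samples on these arrays. Each window runs from 250 bases before the annotated start to 50 after it, 5′ to 3′ on the gene's own strand. Capitals mark CArG boxes in which 1 of the 6 central bases is G or C in place of A or T, and the sequence TATATA. The Acta2 window is chr19:34255324-34255623 on the minus strand, and the Rgs5 window is chr1:169655251-169655550 on the plus strand.
Acta2: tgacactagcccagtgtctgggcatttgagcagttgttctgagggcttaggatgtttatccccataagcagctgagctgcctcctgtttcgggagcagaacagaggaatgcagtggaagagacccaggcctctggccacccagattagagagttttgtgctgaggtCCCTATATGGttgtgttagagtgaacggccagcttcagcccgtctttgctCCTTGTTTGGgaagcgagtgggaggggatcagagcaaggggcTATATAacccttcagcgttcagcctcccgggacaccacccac
Rgs5: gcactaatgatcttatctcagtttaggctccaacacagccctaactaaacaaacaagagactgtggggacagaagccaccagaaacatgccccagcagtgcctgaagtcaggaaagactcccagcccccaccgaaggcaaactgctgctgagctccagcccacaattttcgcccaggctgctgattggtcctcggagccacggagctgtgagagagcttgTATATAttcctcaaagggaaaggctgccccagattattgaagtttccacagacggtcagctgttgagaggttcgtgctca
The Acta2 window holds 2 such CArG boxes, CCCTATATGG starting 84 bases before the annotated start and CCTTGTTTGG starting 34 bases before it. Neither window holds a CArG box with all 6 central bases A or T. Among 32851 promoter windows of the same length, 1.63% hold an exact CArG box, 8.5% hold one with 1 central G or C, and 0.822% hold 2 or more of either kind. TATATA starts 30 bases before the annotated start in the Rgs5 window and at position 9 after it in the Acta2 window, and is present in 5.67% of all windows. The CArG pattern and TATATA read the same on both strands, and no match overlapped another. These matches describe the sequence and were not tested as sites.

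Tagln encodes transgelin (SM22-alpha), an actin-binding protein of smooth muscle. Its signal, the deposited intensity on a linear scale, was 64.2, 109.0, 54.1, 47.7, 64.1 and 65.1 in samples 1 to 6. Sample 2 stood apart, while samples 1, 5 and 6 had nearly the same value and sample 4 was lowest. For comparison across arrays each value was divided by its array's median and log2 was taken, with values under 0.2 of the median set to that floor. On this scale sample 2 was 1.71 times sample 6, the next highest, whereas sample 6 was 1.38 times the lowest. The range from highest to lowest was 1.24 (log2). Only samples 3 and 4 were below the array median, and values below it are not shown to be above background.

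Acta2 encodes smooth muscle alpha-actin, the thin-filament protein of the contractile apparatus. Its signal was 120.0, 117.7, 73.2, 73.3, 76.6 and 80.9 in samples 1 to 6, above the array median in all 6 samples. The values formed a high pair, samples 1 and 2, and 4 samples close together. After scaling, the step between the pair and the next sample was 1.48-fold, the widest gap in the order, and within the pair sample 2 exceeded sample 1 by 0.0054 (log2). The range was 0.73 (log2), or 1.66-fold. Sample 1 was thus high for Acta2 and in the middle of the order for Tagln.

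Myh11 encodes the smooth muscle myosin heavy chain, the motor of the same apparatus and a defining marker of differentiated smooth muscle. Its signal was 7.80, 23.3, 13.0, 16.9, 12.6 and 16.5 in samples 1 to 6. All 6 were below the array median, with samples 1 and 5 at the floor after scaling. The gene is therefore not shown to be measured above background in any sample. Its range was 0.92 (log2) with the floor and 1.61 without it.

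Rgs5, a regulator that speeds GTP hydrolysis by G proteins and a marker of pericytes, had 2 probe sets. The brighter one, 103294_at, had a signal of 104.6, 171.4, 112.9, 151.5, 139.8 and 135.0 in samples 1 to 6. It was highest in sample 2 and lowest in sample 1, and no gap in its order exceeded 1.17-fold. The other probe set, 96180_at, had a signal of 68.6, 80.8, 84.9, 99.8, 90.5 and 80.9 in samples 1 to 6. Both put sample 1 lowest, but the second was highest in sample 4 and put sample 2 below samples 4, 5 and 3. Over the 6 samples they had Pearson's r of 0.53 (exact permutation p = 0.261) and Spearman's rho of 0.54 (exact permutation p = 0.297), and r was 0.48 without samples 1 and 2. The ranges were 0.75 and 0.53 (log2), and the high value of Rgs5 in sample 2 rests on 1 of its 2 probe sets.

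Pdgfrb encodes the PDGF-B receptor on which pericyte recruitment depends. Its signal was 34.1, 48.1, 35.6, 38.0, 53.6 and 45.7 in samples 1 to 6. Every value lay under the array median, so this gene too is not shown to be above background. Samples 5, 2 and 6 were the highest and sample 1 was the lowest. The range was 0.64 (log2).

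**Figure D1:**
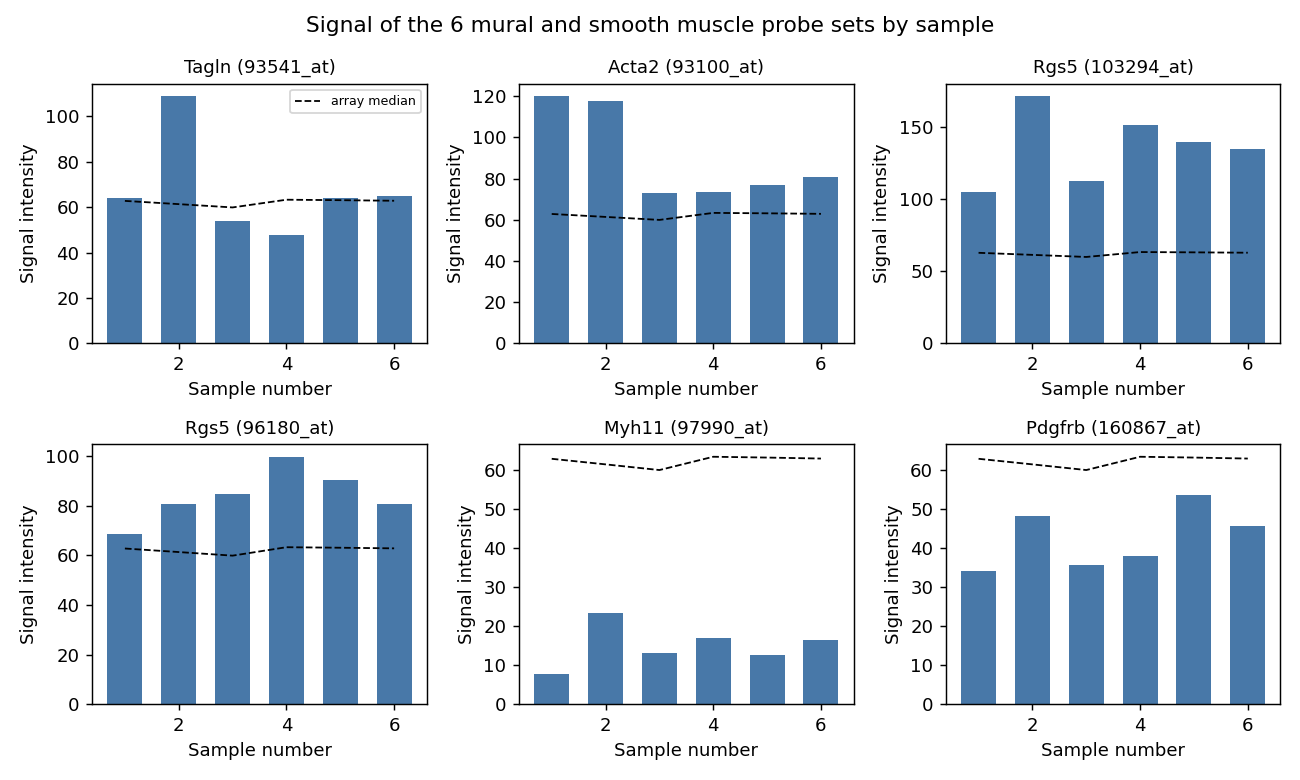
Signal intensity (linear axis from 0) of each of the 6 probe sets in samples 1 to 6, with the median of each array as a dashed line. Tagln is high in sample 2, Acta2 in samples 1 and 2, and all bars of Myh11 and Pdgfrb lie under the line.

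Across the genes, after scaling, sample 2 was highest for 4 of 5 (Tagln, Acta2, Rgs5 and Myh11) and second for Pdgfrb. Of all 8251 named genes, 15.9% were highest in sample 2. Sample 1 was lowest for Rgs5, Myh11 and Pdgfrb, 3 of 5, and 20.1% of all genes were lowest there. Sample 4 was lowest for Tagln and Acta2, 2 of 5, against 18.7% of all genes. All 5 genes lay above their own median in sample 2, as did 53.4% of all named genes, and the median deviation of the 5 was 0.61 (log2) in that sample and between -0.26 and 0.04 in the others. Sample 2 is the one with the differing title code. The count for it was chosen after its values were seen. It was 3 without scaling and 3 with quantile normalization, in both of which Acta2 was highest in sample 1. With the mean of the Rgs5 probe sets it was 3, without Rgs5. With the floor at the array median it was 3, without Myh11, which is constant there. Of the 4 genes, only Tagln was counted under all of these settings.

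**Figure D2:**
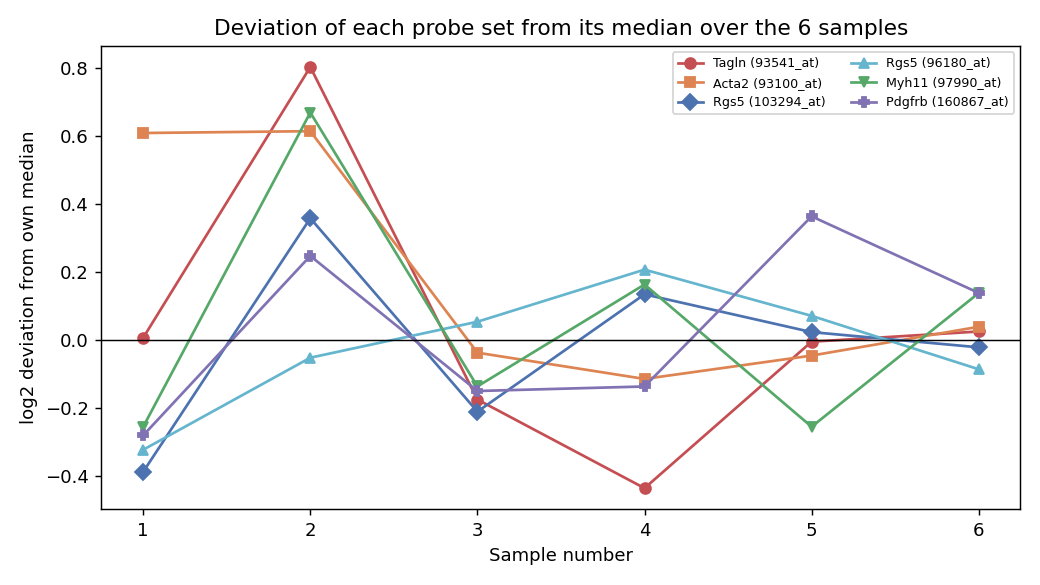
log2 deviation of each probe set from its own median over the 6 samples, on the floored and scaled values. Lines only join the values of a probe set, since the samples have no order; 5 of the 6 probe sets lie above 0 in sample 2 and the second Rgs5 probe set (96180_at) does not.

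Ranges were set beside those of other genes. The median range of the 5 genes was 0.75 (log2), and that of the 4838 genes whose median lay above the array median, called expressed here, was 0.40. A range over 1, which 4.13% of expressed genes had, was reached by Tagln only. Dim genes vary more on these arrays, so each member was also placed among genes within 0.25 (log2) of its own median level. Of 580 such genes for Tagln 90.2% had a smaller range, and of 761 for Rgs5 86.7% did. The share was 68.1% of 642 genes for Acta2, 61.6% of 440 for Myh11 and 31.9% of 527 for Pdgfrb. The place of Tagln rests on single samples: its range was 0.46 without sample 2, under the median of 0.64 for genes of its level, 0.98 without sample 4, and 0.83 with the floor raised to the array median. The range of Rgs5 was 0.52 without sample 2, and 0.53 for its second probe set.

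**Figure D3:**
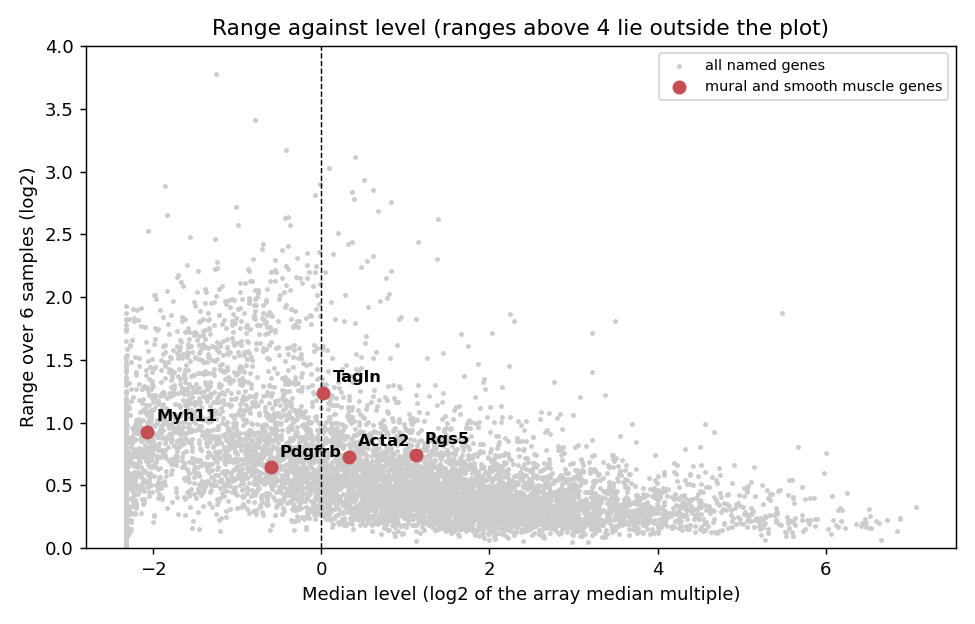
Range over the 6 samples (log2) against median level (log2 of the multiple of the array median, dashed line at 0) for all named genes, with the 5 members in red. Tagln has the widest range of the 5, at 1.24, and Myh11 and Pdgfrb lie left of the line; 1 gene lies outside the plot.

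No sample has a replicate, so probe sets of the same gene served as a guide to measurement error. Among 269 genes with exactly 2 probe sets at median levels between -0.5 and 1.5 (log2), the probe sets disagreed on the difference between a pair of samples by 0.31 (log2) at the median and by 1.15 at the 95th percentile. The median r between them was -0.02, so at these levels the order of samples given by a probe set was mostly not shared by its partner. Of the 15 differences between samples on the floored scale, Tagln exceeded the 95th percentile in 1, sample 2 over sample 4, and Acta2 and both Rgs5 probe sets in 0. For Myh11 and Pdgfrb, set against 583 genes with 2 probe sets under the array median and a 95th percentile of 1.36, the count was also 0. Neighbours in the order of samples thus lay within this spread for every member, including sample 2 over sample 6 for Tagln. The spread holds the error of 2 probe sets and a member's difference that of 1, which makes it wide as a limit. Both probe sets are read on the same array, however, so error shared by a whole sample is not in it.

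The 5 genes make 10 pairs, and each was correlated over the 6 samples, with the brighter probe set for Rgs5. Tagln and Acta2, the actin-binding protein and the actin, had r = 0.73 (exact permutation p = 0.0139, adjusted p = 0.139 by Benjamini-Hochberg over the 10 pairs). Their rho was 0.89 (exact permutation p = 0.0333, adjusted p = 0.333). Without samples 2 and 4, the samples farthest from the Tagln median, r was 0.37. Rgs5 and Myh11 had r = 0.84 (exact permutation p = 0.0389, adjusted p = 0.194) and rho = 0.75 (exact permutation p = 0.106, adjusted p = 0.454), and r was 0.45 without samples 1 and 2, with Myh11 dim throughout. No pair passed the adjusted threshold of 0.05, and 2 of 10 had an unadjusted p under 0.05 by r and 1 by rho.

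The other pairs with Tagln were positive: r = 0.49 and rho = 0.14 with Rgs5, r = 0.66 and rho = 0.23 with Myh11, and r = 0.52 and rho = 0.31 with Pdgfrb (exact permutation p from 0.186 to 0.338 for r and from 0.564 to 0.803 for rho, with adjusted p of at least 0.465). Without samples 2 and 4 these r were 0.22, 0.16 and 0.36. Acta2 had values near 0 with the pericyte genes, r = -0.02 and rho = -0.09 with Rgs5 and r = -0.09 and rho = -0.09 with Pdgfrb (exact permutation p of 0.957 and 0.778 for r and 0.919 for both rho, adjusted p of 0.957 and 0.864 for r and 0.919 for rho). Without samples 1 and 2 they were -0.46 and 0.40. Acta2 with Myh11 had r = 0.34 and rho = 0.17 (exact permutation p = 0.489 and 0.733, adjusted p = 0.667 and 0.919), and r was -0.0024 without samples 1 and 2. Rgs5 and Pdgfrb, both pericyte genes, had r = 0.66 and rho = 0.71 (exact permutation p = 0.172 and 0.136, adjusted p = 0.465 and 0.454), and r was 0.21 without samples 1 and 2. Myh11 with Pdgfrb had r = 0.34 and rho = 0.23 (exact permutation p = 0.533 and 0.65, adjusted p = 0.667 and 0.919), and r was 0.73 without samples 2 and 5.

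Values were positive in 8 of 10 pairs, and in 4 of 10 without sample 2. Tagln with Rgs5 then had r = -0.49 and Tagln with Myh11 -0.52. Acta2 with Rgs5 had -0.84 without sample 2 and 0.74 without sample 1, and Acta2 with Pdgfrb had -0.50 and 0.44, so neither pair had a stable sign. Tagln with Acta2 stayed positive without any single sample, from 0.50 to 0.97, as did Rgs5 with Myh11 (0.64 to 0.97), Rgs5 with Pdgfrb (0.42 to 0.82) and Tagln with Pdgfrb (0.38 to 0.72). With 6 samples the smallest exact permutation p is 0.00139 for r and 0.00278 for rho.

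**Figure D4:**
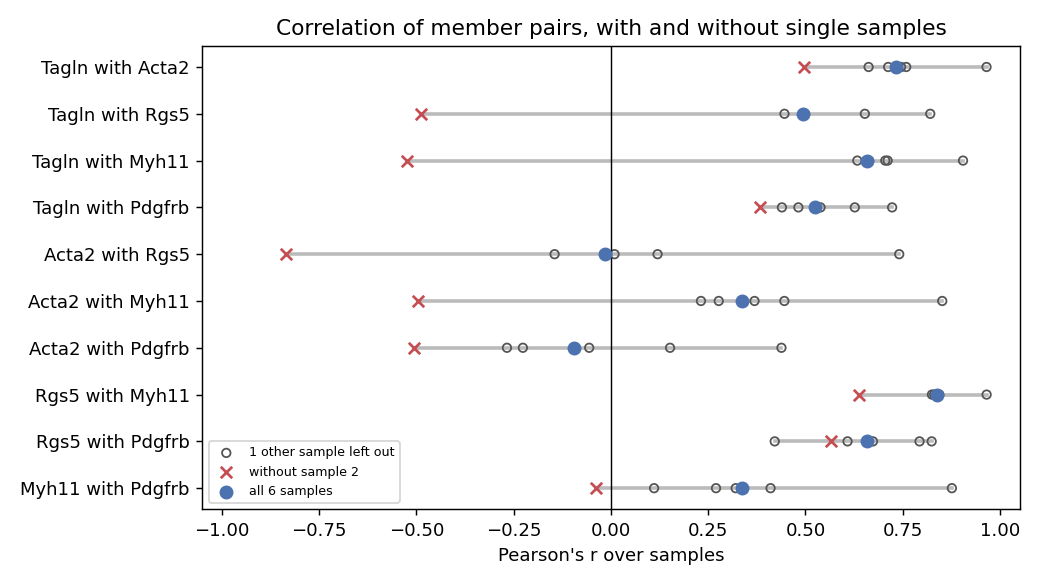
Pearson's r of the 10 pairs over all 6 samples (blue), with sample 2 left out (red cross) and with 1 other sample left out (open circles). The red cross lies left of 0 for 6 pairs, and Tagln with Acta2 and the 3 pairs Tagln with Pdgfrb, Rgs5 with Myh11 and Rgs5 with Pdgfrb stay right of 0 throughout.

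Other genes on a list for the contractile apparatus and cytoskeleton of smooth muscle, called the contractile list here, were also highest in different samples. Of 25 listed, 19 were measured and 9 were expressed, with a median range of 0.54 (log2) beside 0.40 for all expressed genes. Of these 9, 3 were highest in sample 2 after scaling (Myl9, Tpm2 and Mylk), where 15.6% of expressed genes were. The genes with the widest range follow, of which Cav1 and Sncg are not parts of the contractile apparatus. Myl9, the regulatory light chain of smooth muscle myosin, ran most like Tagln among the widest, with a signal of 85.6, 95.8, 73.8, 42.6, 81.0 and 75.6 in samples 1 to 6. It too was highest in sample 2 and lowest in sample 4, but its range of 1.21 (log2) came from the low value in sample 4. Actg2, the enteric smooth muscle actin, was highest in sample 5 (304.5) and lowest in sample 6 (125.8), unlike Acta2, and the name of its probe set marks probes shared within a gene family. Cav1, the coat protein of caveolae, was highest in sample 4 (90.4) and lowest in sample 2 (49.2). Sncg, gamma-synuclein, was highest in sample 4 (127.1) and lowest in sample 1 (79.2), with a probe set also marked as shared.

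Pericyte and basement membrane genes were highest in different samples. Of 22 listed, 14 were measured and 8 were expressed, with a median range of 0.48 (log2). Of the 8, 3 were highest in sample 2, where 15.6% of expressed genes were, 3 in sample 5 and 2 in sample 4. Vtn, vitronectin, had a signal of 190.7, 231.7, 162.4, 145.6, 167.7 and 208.3 in samples 1 to 6, highest and lowest in the same samples as Tagln. Notch3, the Notch receptor of mural cells, was highest in sample 2 (88.3) and lowest in sample 5 (57.4), a 1.58-fold range. Col4a1, a collagen of the basement membrane, was highest in sample 4 (198.8) and lowest in sample 3 (100.4). Bgn, the proteoglycan biglycan, was highest in sample 2 and lowest in sample 3, a 1.47-fold range. The median deviation of these genes was highest in sample 2, at 0.06 (log2), and lay between -0.04 and 0.01 in the others.

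Among the partners of Pdgfrb, its ligand Pdgfb, made by endothelium, was highest in sample 2 at 78.4 and lay between 63.5 and 71.1 in the others. Pdgfra, the receptor of oligodendrocyte precursors and fibroblasts, was highest in sample 6 (360.8) and lowest in sample 3 (225.2). Kit, a receptor of the same kinase family, was highest in sample 2 (290.5) and lowest in sample 1 (195.3), and Flt3 ranged 1.31-fold. All 6 measured genes of this list of 8 were expressed, with a median range of 0.36 (log2). Regulators of the smooth muscle program were represented by 4 expressed genes of 9 measured and 14 listed. Of these, Notch1 ranged most, at 155.1 in sample 4 and 82.3 in sample 1, and Mrtfa, a coactivator of SRF, lay between 220.3 in sample 1 and 263.8 in sample 6. Tgfb2, a TGF-beta ligand, ranged 1.47-fold and Hey1, a target of Notch, 1.28-fold.

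The transgelin paralogs Tagln2 and Tagln3, the second of which is neuronal, ranged 1.18-fold and 1.21-fold, beside 2.36-fold for Tagln. Among actins, Actg1, the cytoplasmic gamma-actin, ranged 1.13-fold, Acta1, the skeletal form, 1.28-fold, and Actb, the cytoplasmic beta-actin, 1.60-fold (highest in sample 1 and lowest in sample 5). Actc1, the cardiac form, was highest in sample 2 (168.7) and lowest in sample 4 (108.3), as Acta2 was after scaling, through a probe set marked as shared within a gene family. Actr3, a subunit of the actin-nucleating Arp2/3 complex, ranged 1.26-fold. Of 10 other myosin heavy chains 3 were expressed, and the widest, Myh7, the slow muscle form, was highest in sample 1 (123.4) and lowest in sample 2 (81.4), with a probe set marked as shared. Among 10 expressed RGS genes beside Rgs5, 1 was highest in sample 2, where 15.6% of expressed genes were. Their median range was 0.47 (log2), and the widest was Rgs19, at 149.5 in sample 3 and 92.2 in sample 5.

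Markers of other cells that a hippocampal dissection could hold were read beside the members. Of 16 genes of meninges and fibroblasts, all measured, 9 were expressed, and 5 of the 9 were highest in sample 2 (15.6% of expressed genes). Dcn, the fibroblast proteoglycan decorin, had a signal of 669.0, 703.3, 432.3, 314.6, 445.0 and 618.7 in samples 1 to 6. Its 3 highest samples, 2, 1 and 6, and its lowest, 4, were those of Acta2 and of Tagln after scaling. Ptgds, a prostaglandin synthase of meninges, was high in samples 1, 2 and 6 (3582 to 4699) and lower in samples 3, 4 and 5 (1317 to 2196), with a probe set marked as shared. Slc6a13, a GABA transporter of meninges, was highest in sample 2 (251.3) and lowest in sample 3 (136.8), and Igfbp2 was highest in sample 6 (265.0). The summed signal of the 16 genes was 6805, 7697, 4010, 4543, 3691 and 6660 in samples 1 to 6. Without Ptgds the sums of the other 15 were 2748, 2999, 2253, 2346, 2374 and 3079, with samples 6, 2 and 1 again the highest. The median deviation of the expressed genes was likewise highest in sample 6 (0.30, log2), then sample 2 (0.19) and sample 1 (0.14). After scaling, samples 2, 1 and 6 were also the 3 highest for Acta2 and for Tagln. For Tagln, however, samples 6, 1 and 5 were nearly tied, at 0.024, 0.0058 and -0.0058 (log2) from its median. In sample 6, where the meningeal median was highest, Acta2 was 0.038 (log2) from its own median. The part of meningeal tissue in the levels of Acta2 and Tagln was not tested.

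Of 22 endothelial genes 18 were measured and 8 expressed. After scaling 2 of the 8, Cldn5 and Ly6e, were highest in sample 2, where 15.6% of expressed genes were. The median deviation of the 8 was lowest in sample 2, at -0.08 (log2), and highest in sample 6 (0.15) and sample 1 (0.10). The summed signal of the 18 lay between 4093 in sample 4 and 4398 in sample 1. Ly6e alone gave 2373 to 2563 of it, with a probe set marked as shared. Flt1, a VEGF receptor, was highest in sample 1 (97.5) and lowest in sample 3 (53.2), and Slc2a1, the glucose transporter of the blood-brain barrier, was highest in sample 5 (178.7) and lowest in sample 1 (113.7). Pltp, a phospholipid transfer protein, ranged 1.47-fold, and Eng, an endothelial TGF-beta co-receptor, 1.46-fold. Of 12 choroid plexus genes 6 were measured and 2 expressed, both lowest in sample 1. Ttr, transthyretin, had 20.5 and 44.9 in samples 1 and 2, where Acta2 was highest, and 214.6, 1504, 482.1 and 1798 in samples 3 to 6. Folr1 of the same epithelium had 22.7 and 38.9 in samples 1 and 2 and 51.4, 122.9, 126.5 and 162.1 in samples 3 to 6. Of 12 blood cell genes 6 were measured, and the 1 expressed, Hba-a1, alpha-globin, was highest in sample 6 (1357) and lowest in sample 3 (865.7). Of 17 genes of striated muscle 4 were expressed (Atp2a1, Tnnt1, Tnni1 and Casq1) and 0 of these were highest in sample 2 (15.6% of expressed genes).

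**Figure D5:**
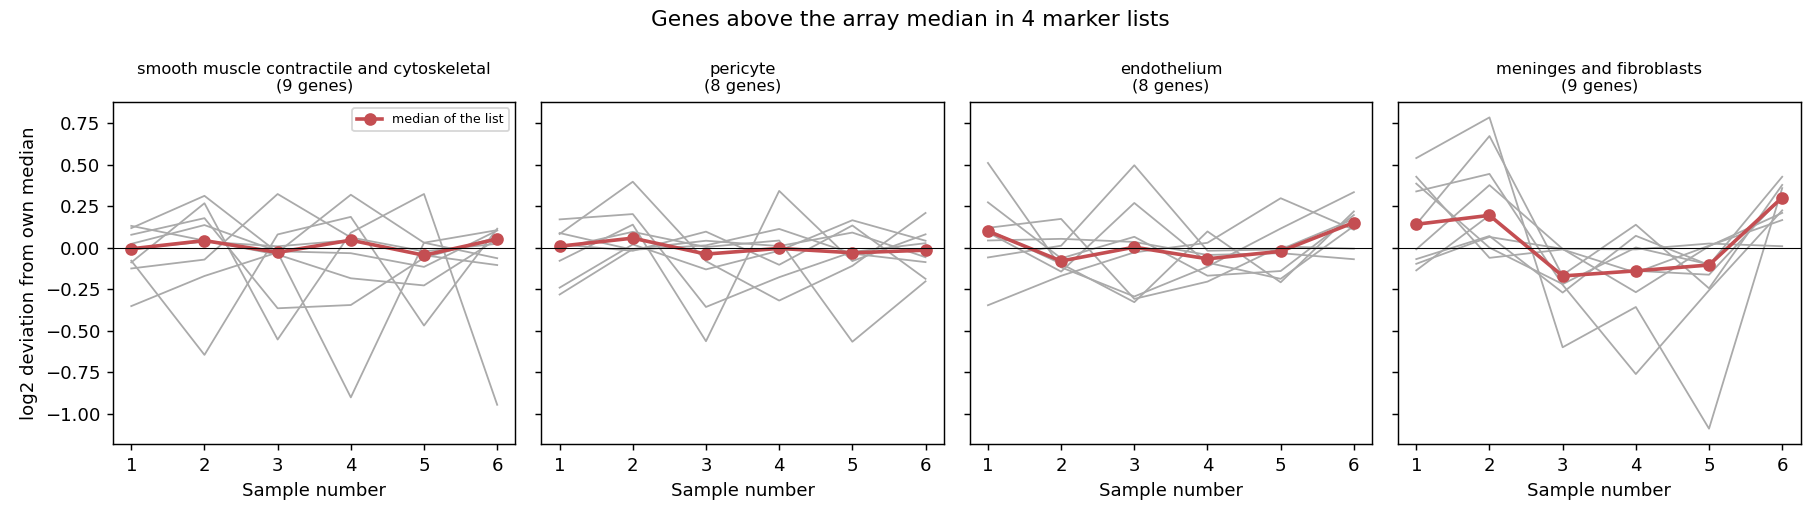
log2 deviation of each expressed gene from its own median (grey) and the median over the list (red) in samples 1 to 6, for 4 marker lists. The red line reaches 0.19 in sample 2 and 0.30 in sample 6 for meninges and fibroblasts and stays within 0.06 of 0 for the contractile and pericyte lists.

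Ratios of 3' to 5' signal serve as a sign of RNA quality, with high ratios for degraded RNA. The ratios in sample 2 were 1.11 for beta-actin, 0.79 for Gapdh and 1.57 for pyruvate carboxylase, the lowest of the 6 samples for each. In sample 1, where Acta2 was high and Rgs5, Myh11 and Pdgfrb were lowest, the ratios of beta-actin (1.27) and Gapdh (0.86) were the highest. The pyruvate carboxylase ratio of sample 1 (2.35) lay under those of samples 3 (3.56) and 6 (2.61). The transferrin receptor ratio was 2.54 in sample 1 and 2.70 in sample 2, the lowest pair, against 2.80 to 3.47 in the others, with sample 3 highest. The part of RNA quality in the members' levels was not tested.

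The 3 expressed genes most like each brighter member were taken by Pearson's r over the 6 samples, without a test. For Tagln they were Mmp17, a matrix metalloproteinase (r = 0.97), Cyp4v3, a cytochrome P450 (0.96), and Hoxa4, a homeobox gene (0.96), and the most opposite was Psmb1, a proteasome subunit (-0.996), at 871.7 in sample 2 and from 1005 to 1122 in the others. For Acta2 they were Col6a2, a chain of collagen VI (0.98), Ppid, a cyclophilin (0.98), and Smpd2, a sphingomyelinase (0.97), with H2bc1, a histone, most opposite (-0.98). Col6a2 had a signal of 84.5, 84.0, 62.7, 65.7, 62.6 and 70.1 in samples 1 to 6, the same split of samples 1 and 2 from the rest. For Rgs5 they were Tuba8, an alpha-tubulin (0.98), Bhmt, a methyltransferase of homocysteine (0.98), and Myo10, an unconventional myosin (0.97), with Terf2ip, a telomere protein, most opposite (-0.98). An r of at least 0.9 was reached with Tagln by 0.476% of expressed genes, with Acta2 by 0.682% and with Rgs5 by 0.786%, and the median expressed gene had 0.868%. Each of these shares lay under that of the median expressed gene, so a high r with single genes does not set the members apart. No gene of the contractile or pericyte lists was among those named.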

How the data were processed

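Total RNA of hippocampus from 6 mouse samples was measured on 1 oligonucleotide array each. The authors deposited 1 table of linear intensity values, a row for each probe set, its summary method and scaling step not given in the sources used here. As computed, the trimmed mean, between the 2nd and 98th percentiles, was 150.0 on every array, and array medians of probe sets that are not controls lay between 59.9 and 63.3. No detection calls were used, so signal above background was not judged. The number of arrays limits the precision. All samples have no group in the labels. Gene names came from GEO's annotation of the platform, with symbols looked up by gene identifier in the RefSeq table (GRCm38.p6), which matched 10817 of the 10833 with a single symbol; 396 had several and 1193 none. All 6 member probe sets have names without a mark of shared probes. Each array was divided by its median, floored at 0.2 of it and log2 transformed, and a gene took its probe set with the highest mean. Correlations used exact two-sided permutation tests over 720 orders of the samples with Benjamini-Hochberg adjustment over 10 pairs; they take the samples as independent, which the labels do not state. Named genes were the members, the 3 most alike and 1 most opposite expressed genes of each bright member, up to 4 of the widest genes of each list, and the actins and transgelins. The members and lists were chosen with earlier results of these data known. Functions were tested on simulated data. Python 3.11.15, numpy 2.4.6 and pandas 2.3.3 were used.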

Additional observations from a re-analysis of the deposited data

Results flagged for a closer look

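By Dixon's test, which chance passes in about 1 of 20 sets of values, 3 of the 20 sets examined held a sample far from the others. Tagln had sample 2 above the other samples by 0.628 of its whole range, just past the critical value. The median deviation of the PDGF ligand and receptor list also had sample 2 highest, with a gap of 0.787 of its range, although that range was small (0.08 in sample 2 and -0.02 to -0.002 in the others, log2). The median deviation of the 4 expressed striated muscle genes had sample 6 lowest, at -0.26 (log2), with a gap of 0.734 of its range.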

How the results depend on the processing

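No paired analysis was possible because the labels give no groups. The count of member pairs past the adjusted threshold was 0 under every alternative that gave pairs, with a lowest adjusted p of 0.0833. Values that changed are these. Ranges (log2): Tagln 0.46 to 1.24 over the sets that leave out 1 sample, with the low end without sample 2; Myh11 0.42 to 0.92 likewise, 1.61 with no floor, and 0 with the floor at the array median, as for Pdgfrb, by construction; without sample 2 the median range of the members was 0.52. Positive pairs numbered 4 to 10 without single samples, and 2 of 3 with the floor at the median, where Myh11 and Pdgfrb are constant and give no pairs. Correlations that changed sign: Tagln with Rgs5 (-0.49) and with Myh11 (-0.52) without sample 2; Acta2 with Rgs5 without sample 1 (0.74), 4 (0.12) or 5 (0.01); Acta2 with Myh11 with no floor (-0.10), without sample 2 (-0.50) and without samples 1 and 2 (-0.0024); Acta2 with Pdgfrb without sample 1 (0.44), 5 (0.15) or both 1 and 2 (0.40); Myh11 with Pdgfrb without sample 2 (-0.039). Without single samples, Tagln ran up to 0.82 with Rgs5 and 0.90 with Myh11, Acta2 from -0.84 with Rgs5 and up to 0.85 with Myh11, and Myh11 up to 0.88 with Pdgfrb. With the mean of the Rgs5 probe sets, the r of Rgs5 was 0.64 with Myh11, 0.16 with Tagln, -0.37 with Acta2 and 0.56 with Pdgfrb. Of the 3 genes most like each member, quantile normalization left 1 for Tagln, 1 for Acta2 and 0 for Rgs5, and a filter at 2 times the array median left 1 for Acta2 and 1 for Rgs5. The causes were not tested. Other ranges moved by less than the SD of the gene's 6 values. Signal near or under the array median limits Tagln, Myh11 and Pdgfrb.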
